A study of Mus musculus with 6 samples.

Results

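The genes described here mark the cells that line blood and lymph vessels, or steer their growth. The list names 10 symbols, and 9 of them had a row among the 14484 genes of the deposited count table: Pecam1, Cdh5, Kdr, Flt1, Flt4, Tek, Tie1, Vegfa and Lyve1. Prox1, a transcription factor of lymphatic endothelium, was not analysed here. The genes were listed by name, with earlier results of these data known.

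RNA sequencing was done on mouse skin of 2 genotypes, with 3 libraries each, and the series describes the samples as nevi, or moles, with an intact or a mutant Atr gene. In ATR mD/mD mice (ATR fl/fl; Braf CA/+; Cre +), part of the kinase domain of ATR, which guards replicating DNA, was deleted. ATR WT mice (ATR +/+; Braf CA/+; Cre +) carried the same Braf CA allele and Cre, so the groups differ in the Atr alleles as labelled, and both were on the strain background C57BL/6-129J. The labels name neither the promoter that drives Cre nor the ages, and whether each library came from its own animal is not stated, so the p-values reflect only the variation among these libraries.

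Blood vessel growth is steered by vascular endothelial growth factors, secreted proteins that bind receptor tyrosine kinases on endothelial cells. VEGF-A, the product of Vegfa, signals mainly through VEGFR2 (Kdr), while VEGFR1 (Flt1) binds the same ligand with high affinity and signals weakly, so that it can act as a decoy. VEGFR3 (Flt4) serves VEGF-C and VEGF-D on lymphatic vessels, and the angiopoietins act through TIE2 (Tek), with TIE1 (Tie1) as its partner. In mouse skin, the vessels around hair follicles expand during hair growth and regress afterwards, and follicle keratinocytes are a known source of VEGF-A.

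Promoters of 4 members are shown. Of these, Kdr and Tie1 are among 5 receptor and junction genes that divided the libraries by the level of hair follicle genes, as described below. Vegfa and Flt1 did not. RefSeq promoters (build GRCm38.p6, 250 bases before to 50 after the listed start) were found for 6 of the 9 members. None was found for Pecam1, Cdh5 and Lyve1, so neither junction gene has a window. The listed starts for Tie1, Flt4 and the second Vegfa window lie well inside the gene positions given below. Capitals mark matches to AGGAAG or CGGAAG on either strand, a core recognised by ETS factors, the family that includes the endothelial regulators Erg and Fli1. They are given 5′ to 3′ on the gene's strand for Kdr (chr5:75978406-75978705, minus), Flt1 (chr5:147725962-147726261, minus), Tie1 (chr4:118489800-118490099, minus) and the upstream one of the 2 listed for Vegfa (chr17:46032328-46032627, minus).
Kdr: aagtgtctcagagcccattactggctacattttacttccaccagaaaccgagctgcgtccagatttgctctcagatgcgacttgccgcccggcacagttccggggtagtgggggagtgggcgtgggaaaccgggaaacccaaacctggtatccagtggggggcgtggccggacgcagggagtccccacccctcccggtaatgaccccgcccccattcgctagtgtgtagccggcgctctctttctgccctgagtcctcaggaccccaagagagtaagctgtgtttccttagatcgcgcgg
Flt1: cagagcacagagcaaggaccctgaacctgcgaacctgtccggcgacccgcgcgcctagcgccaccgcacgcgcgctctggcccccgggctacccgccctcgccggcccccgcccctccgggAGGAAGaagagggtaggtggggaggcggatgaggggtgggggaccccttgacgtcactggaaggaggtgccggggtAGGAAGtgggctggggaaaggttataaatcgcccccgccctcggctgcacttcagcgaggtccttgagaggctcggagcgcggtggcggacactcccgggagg
Tie1: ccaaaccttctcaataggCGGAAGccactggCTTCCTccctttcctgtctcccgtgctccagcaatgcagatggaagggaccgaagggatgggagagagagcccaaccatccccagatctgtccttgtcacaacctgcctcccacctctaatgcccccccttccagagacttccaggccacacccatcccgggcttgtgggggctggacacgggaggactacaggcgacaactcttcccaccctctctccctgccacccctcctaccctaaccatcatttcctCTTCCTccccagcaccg
Vegfa: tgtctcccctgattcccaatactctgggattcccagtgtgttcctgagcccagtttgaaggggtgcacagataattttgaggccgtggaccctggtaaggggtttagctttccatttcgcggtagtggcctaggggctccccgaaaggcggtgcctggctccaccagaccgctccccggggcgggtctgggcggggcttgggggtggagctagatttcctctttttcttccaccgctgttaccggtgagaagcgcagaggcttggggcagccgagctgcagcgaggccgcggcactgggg
The ETS letters occurred 2 times in the Flt1 window, 3 times in the Tie1 window and 0 times in the Kdr and Vegfa windows. The Flt4, Tek and second Vegfa windows also held 0, and 46.5% of all 32851 promoters of this length held at least 1 match. The GC box GGGCGG, searched on both strands, occurred 2 times for Kdr, 3 times for Flt1, 0 times for Tie1 and 2 times for Vegfa, and in 35.7% of all promoters. The core of the hypoxia response element, ACGTG, occurred 0 times in these 4 windows and in 19.6% of all promoters. It occurred 1 time in the second Vegfa window, which lies wholly inside the gene. These matches are letters in a window and show no binding.

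Gene counts summed to between 34723600 and 46847751 per library. Atr had 728, 874 and 865 counts in ATR mD/mD 1, 2 and 3 and 640, 1065 and 1182 counts in ATR WT 1, 2 and 3, and a count over the whole gene does not check a deletion of a part. The libraries stood apart in hair follicle genes, and this division crossed the genotypes. The mean level of 30 hair follicle genes was 7.38 log2 CPM (counts per 1000000 gene counts) in ATR mD/mD 3, 7.12 in ATR WT 2 and 7.36 in ATR WT 3, against -0.34 in ATR mD/mD 1, 2.18 in ATR mD/mD 2 and 1.90 in ATR WT 1. The first 3 are called higher-hair and the other 3 lower-hair libraries below. Higher-hair are thus ATR WT 2 and 3 but only ATR mD/mD 3, so hair level was not balanced between the genotypes. A genotype difference from a fit without a hair term therefore also carries hair level. Xist, the RNA that coats and silences an X chromosome in females, had counts of 18050 in ATR mD/mD 1, 23005 in ATR WT 2 and 29207 in ATR WT 3. The other libraries held 40 (ATR mD/mD 2), 23 (ATR mD/mD 3) and 37 (ATR WT 1). Hair level and Xist therefore divide the libraries differently, and in ATR WT both set library 1 apart from libraries 2 and 3.

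All 9 members were expressed in every library, with between 222 counts (Lyve1 in ATR mD/mD 3) and 4664 counts (Pecam1 in ATR mD/mD 2). Counting error alone amounts to 6.71% at the lowest and 1.46% at the highest of these counts, and reads without molecular identifiers make this a lower estimate. All 31 further pan-endothelial markers were in the table, and 0 of them had a library at 0 counts.

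Levels of different genes compare only per length, so CPM values, scaled by the trimmed mean of M-values (TMM), were divided by the exon length of each gene in kb. Pecam1, which encodes the junction protein CD31 and lies on chromosome 11 (106654217 to 106750628, minus strand, mm10), had the highest level, 24.0 ± 4.43 CPM per kb in ATR mD/mD and 23.7 ± 3.83 in ATR WT (SD, n = 3 each). Vegfa (chromosome 17, 46016993 to 46032369, minus strand) was next, with 14.9 ± 1.96 CPM per kb in ATR mD/mD and 19.1 ± 3.69 in ATR WT. Cdh5, the gene of the junction cadherin VE-cadherin (chromosome 8, 104101625 to 104144511, plus strand), had 13.2 ± 3.06 CPM per kb in ATR mD/mD and 13.6 ± 1.71 in ATR WT. These neighbours overlapped in their ranges over the 6 libraries, Vegfa lying above Cdh5 in 4 of 6.

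The receptors lay lower per length. Tie1 (chromosome 4, 118471191 to 118490061, minus strand) had 8.57 ± 1.23 CPM per kb in ATR mD/mD and 8.33 ± 2.47 in ATR WT, and its range did not overlap that of Kdr below it. Kdr (chromosome 5, 75932827 to 75978458, minus strand) had 5.29 ± 1.88 CPM per kb in ATR mD/mD and 4.96 ± 0.667 in ATR WT, and Tek (chromosome 4, 94739289 to 94874976, plus strand) had 5.23 ± 1.45 CPM per kb in ATR mD/mD and 4.82 ± 0.296 in ATR WT. Kdr and Tek could not be ranked, since Kdr was above Tek in 2 of 6 libraries. The lymphatic genes followed: Lyve1, a hyaluronan receptor of lymphatic endothelium and of some macrophages (chromosome 7, 110850607 to 110863239, minus strand), had 3.72 ± 1.71 CPM per kb in ATR mD/mD and 3.57 ± 0.695 in ATR WT, and Flt4 (chromosome 11, 49609263 to 49652739, plus strand) had 2.32 ± 0.490 CPM per kb in ATR mD/mD and 2.42 ± 0.186 in ATR WT. Flt1 (chromosome 5, 147561604 to 147726011, minus strand) was lowest, with 1.44 ± 0.158 CPM per kb in ATR mD/mD and 1.68 ± 0.332 in ATR WT. Within each library, Lyve1 lay above Flt4 and Flt4 above Flt1 in 6 of 6. Flt1 has a soluble short form in mice, and its exon length of 10961 bases covers all annotated coding transcripts, so a level per length is lowered where a short form makes up much of the RNA.

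**Figure D1:**
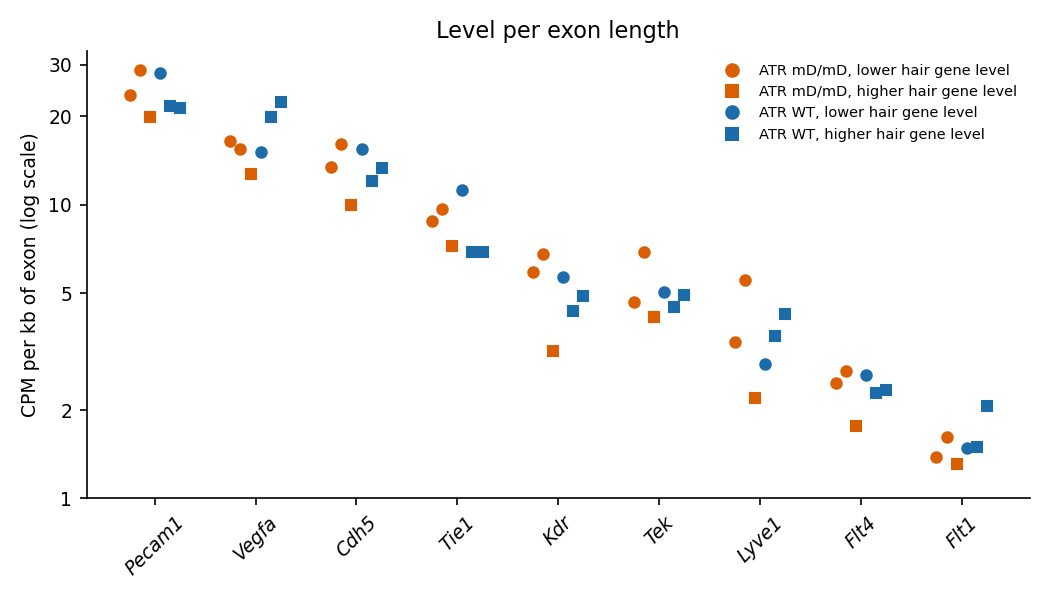
TMM-scaled CPM per kb of exon (log axis) of the 9 genes, 1 point per library, in the order of their mean. Pecam1 leads at 19.84 to 28.65 CPM per kb and Flt1 is last at 1.31 to 2.07, while the points of Kdr and Tek overlap.

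Between genotypes, no difference beyond the replicate spread was found in the junction genes. Pecam1 had 97.3, 118.4 and 82.0 CPM in ATR mD/mD 1, 2 and 3 and 116.3, 89.95 and 88.0 CPM in ATR WT 1, 2 and 3. Cdh5 had 53.6, 64.4 and 40.0 CPM in ATR mD/mD and 61.7, 48.2 and 53.4 CPM in ATR WT. In both genes the ATR mD/mD libraries spanned both the highest and the lowest value, and the groups overlapped. The log2 fold change of ATR mD/mD over ATR WT was 0.02 (SE 0.190) for Pecam1 and -0.05 (SE 0.198) for Cdh5, each with an adjusted p of 0.9999 (edgeR quasi-likelihood test, Benjamini-Hochberg over all genes). In bulk tissue, fewer endothelial cells and less RNA per cell cannot be told apart.

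None was found in the VEGF receptors either. Kdr had 34.8, 40.3 and 18.9 CPM in ATR mD/mD and 33.6, 25.7 and 29.0 CPM in ATR WT. Flt1 had 15.2, 17.7 and 14.4 CPM in ATR mD/mD and 16.2, 16.4 and 22.6 CPM in ATR WT. Flt4 had 15.5, 17.0 and 11.1 CPM in ATR mD/mD and 16.4, 14.3 and 14.6 CPM in ATR WT. ATR mD/mD 3 held the lowest value of all 3 receptors, and ATR WT 3 the highest of Flt1. The log2 fold changes were 0.09 (SE 0.288) for Kdr, -0.23 (SE 0.188) for Flt1 and -0.06 (SE 0.199) for Flt4, all at an adjusted p of 0.9999 (edgeR).

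For the angiopoietin receptors, too, no difference passed the test. Tek had 22.0, 32.4 and 19.5 CPM in ATR mD/mD and 23.8, 21.1 and 23.2 CPM in ATR WT. Tie1 had 40.1, 43.9 and 32.95 CPM in ATR mD/mD and 50.9, 31.4 and 31.4 CPM in ATR WT. ATR mD/mD 2 was the highest library for Tek and ATR WT 1 for Tie1, and both pairs of groups overlapped. The log2 fold changes were 0.12 (SE 0.211) for Tek and 0.04 (SE 0.233) for Tie1, both at an adjusted p of 0.9999 (edgeR).

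Vegfa, the ligand, had the lowest p of the members. It had 58.2, 54.7 and 44.9 CPM in ATR mD/mD and 53.1, 70.0 and 78.7 CPM in ATR WT. ATR WT 1 lay below 2 of the ATR mD/mD libraries, so the groups overlapped. Its log2 fold change was -0.36 (SE 0.182, 95% interval -0.79 to 0.08, unadjusted p = 0.0950, adjusted p = 0.9999, edgeR). Vegfa was highest in ATR mD/mD 1 and in libraries 2 and 3 of ATR WT, which are the 3 with high Xist. This was so for 1 of 9 members and for 4.7% of all genes, and 0 of 9 members were lower in those libraries without overlap, against 2.22% of all genes. With Xist as a covariate, the log2 fold change of Vegfa was -0.21. The part of Xist level in the Vegfa values was not tested.

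Lyve1 had the widest spread, with 9.84, 16.1 and 6.35 CPM in ATR mD/mD and 8.30, 10.3 and 12.3 CPM in ATR WT. The highest and the lowest library, 2.53-fold apart, were both ATR mD/mD. Its log2 fold change was 0.06 (SE 0.358, 95% interval -0.80 to 0.92, adjusted p = 0.9999, edgeR). The lower end of the 95% interval was 0.575-fold or above and the upper end 1.89-fold or below for each of the 9 members. The summed level of 12 measured markers of macrophages, cells that can also express Lyve1, was 1134, 720.2 and 834.3 CPM in ATR mD/mD 1, 2 and 3 and 587.9, 1136 and 1198 CPM in ATR WT 1, 2 and 3. Within ATR mD/mD this sum was lowest in library 2, where Lyve1 was highest, and within ATR WT its order over the libraries was that of Lyve1. Their part in the Lyve1 values was not tested.

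**Figure D2:**
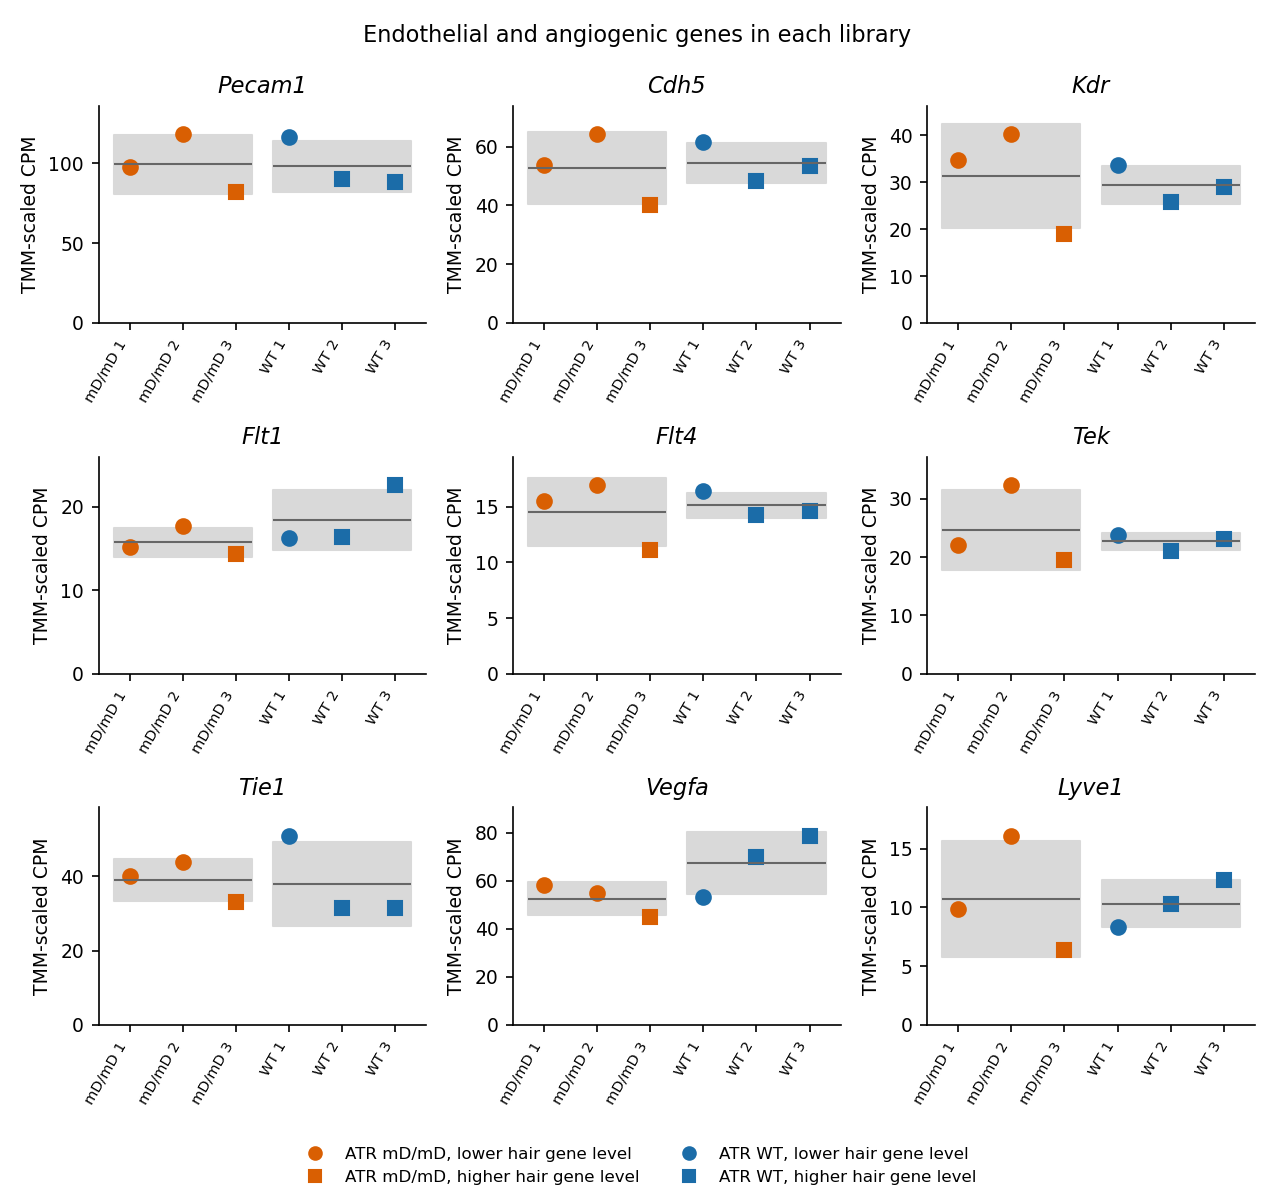
TMM-scaled CPM of each gene in the 3 ATR mD/mD libraries (orange) and the 3 ATR WT libraries (blue), with squares for higher-hair and circles for lower-hair libraries. Lines are group means and grey bands 1 SD. The groups overlap in all 9 panels, and in the panels of Pecam1, Cdh5, Kdr, Flt4 and Tie1 the squares lie below the circles.

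Over all genes, 7 passed an adjusted p under 0.05 and each was lower in ATR mD/mD, which is 0.0483% of the genes tested. Of the 9 members, 0 passed, and 0 had an unadjusted p under 0.05, against 1.66% of all genes (edgeR). DESeq2 and limma-voom also called 0 members, against 0.269% and 0.0483% of all genes. The groups overlapped in 9 of 9 members, whereas 4.84% of all genes had no overlap between genotypes (2.26% higher and 2.58% lower in ATR mD/mD). The members' log2 fold changes had a median of 0.02 and ran from -0.36 to 0.12, against a median of 0.01 over all genes. The authors' deposited table gives each of the 9 members an adjusted p of 1.

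**Figure D3:**
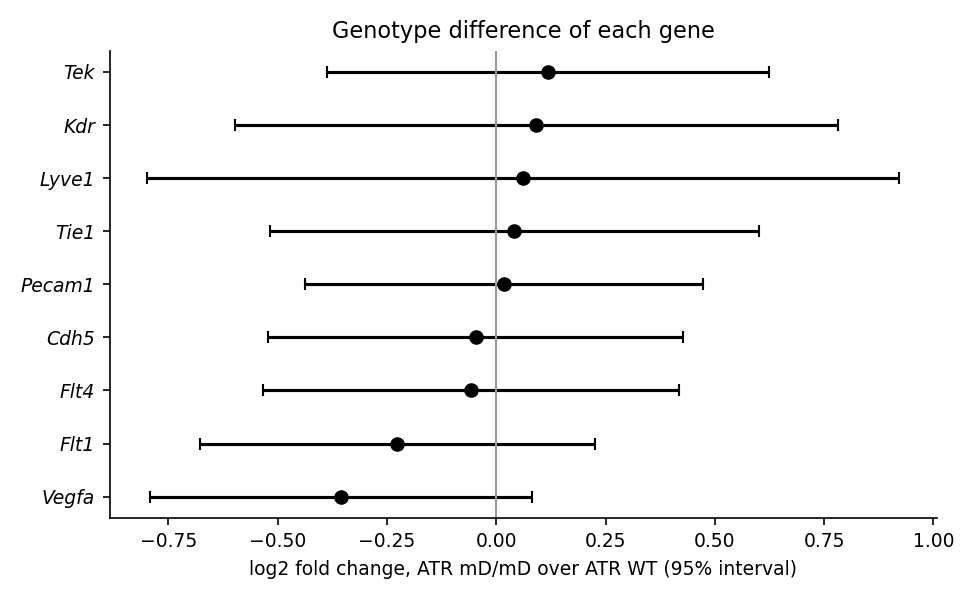
Log2 fold change of ATR mD/mD over ATR WT for each gene with its 95% interval from the edgeR fit (3 libraries per group). Every interval includes 0, and Vegfa has the lowest value, -0.36.

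Set against hair level, most receptors and both junction genes were lower where hair genes were high. Pecam1, Cdh5, Kdr, Flt4 and Tie1 were each lower in all 3 higher-hair libraries than in any lower-hair library, which is 5 of 9 members (55.6%), against 17.1% of all genes. For Pecam1 the values were 82.0, 89.95 and 88.0 CPM in the higher-hair libraries ATR mD/mD 3, ATR WT 2 and ATR WT 3, against 97.3, 118.4 and 116.3 CPM in the lower-hair libraries ATR mD/mD 1, ATR mD/mD 2 and ATR WT 1. The margin was narrow for Cdh5, with 53.4 CPM in the higher-hair library ATR WT 3, against 53.6 CPM in the lower-hair library ATR mD/mD 1. In the other direction, 0 of 9 members did so, against 19.6% of all genes. Hair level was measured in the same libraries and most of the members mark one cell type, so these shares are descriptions without a test. The higher-hair library ATR mD/mD 3 was lowest for 8 of 9 members, among them Flt1, Vegfa, Tek and Lyve1, which did not divide by hair level. The share of all genes lowest in that library was not counted. Without that library, the count of members lower in higher-hair libraries stayed 5, and its part in the division was not tested. The sum of the 31 pan-endothelial markers was 1255 to 1375 CPM in the higher-hair libraries, against 1388 to 1559 CPM in the lower-hair libraries.

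The size of that difference varied among the receptors. In a fit with genotype as a term, the log2 slope per unit of log2 hair level was -0.10 for Kdr, -0.08 for Tie1, -0.06 for Cdh5, Flt4 and Pecam1, and -0.03 for Tek and Lyve1. It was 0.01 for Flt1 and 0.0037 for Vegfa. The slope was below 0 in 7 of 9 members and in 47.9% of all genes. Within ATR mD/mD, the log2 difference of Kdr between the higher-hair library and the mean of the lower-hair libraries was -0.99, and within ATR WT the difference of the higher-hair mean from the lower-hair library was -0.30.

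Some other cell types moved with hair level as well. All 11 measured skeletal muscle markers were lower in the higher-hair libraries without overlap, and their summed level was 8260 to 13950 CPM there, against 23600 to 37460 CPM in the lower-hair libraries. The share over all genes was 17.1% lower and 19.6% higher. Of 12 keratinocyte markers, 4 were lower and 1 higher without overlap, with sums of 14900 to 17980 CPM in the higher-hair libraries, against 20430 to 24670 CPM in the lower-hair libraries. Of 13 adipocyte markers, 5 were lower, and the sums overlapped, at 4557 to 6240 CPM in the higher-hair and 6156 to 6915 CPM in the lower-hair libraries. Melanocyte and Schwann cell markers lay the other way, with 7 of 12 higher and 1 lower, and sums of 814.8 to 1147 CPM in the higher-hair libraries, against 411.1 to 646.6 CPM in the lower-hair libraries. Fibroblast, macrophage and blood markers did not divide in this way, and their sums overlapped. Of 10 fibroblast markers, 0 were lower and 0 higher without overlap. Of 12 macrophage markers, 2 were lower and 2 higher, and of 5 blood markers, 1 was lower and 2 higher. None of these markers was at 0 in any library. Their part in the lower endothelial levels was not tested.

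Ratios of counts within a library are free of the scaling between libraries and show where members parted. Flt1 counts per Kdr count were 0.762, 0.639 and 0.782 in the higher-hair libraries ATR mD/mD 3, ATR WT 2 and ATR WT 3, against 0.436, 0.439 and 0.484 in ATR mD/mD 1, ATR mD/mD 2 and ATR WT 1. The ratio of the decoy receptor to the main signalling receptor was thus higher in each higher-hair library. Vegfa counts per Kdr count divided the libraries in the same way, at 2.38, 2.73 and 2.72 in those higher-hair libraries, against 1.67, 1.36 and 1.58 in the lower-hair libraries. Both ratios are taken to Kdr, the member with the steepest fall with hair level, while Flt1 and Vegfa had slopes near 0. Per Pecam1 count, Flt1 divided the libraries as well, but Vegfa did not. Vegfa per Pecam1 was 0.547 in the higher-hair library ATR mD/mD 3, against 0.598 in the lower-hair library ATR mD/mD 1. The ratios of Cdh5, Flt4 and Tie1 to Pecam1 differed by 1.24-, 1.23- and 1.25-fold between the highest and the lowest library, and those of Tek and Kdr by 1.34- and 1.56-fold. Those of Flt1, Vegfa and Lyve1 to Pecam1 differed by 1.84-, 1.96- and 1.96-fold. In none of these ratios were the genotypes free of overlap, and which ratios to form was chosen after the values were seen.

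**Figure D4:**
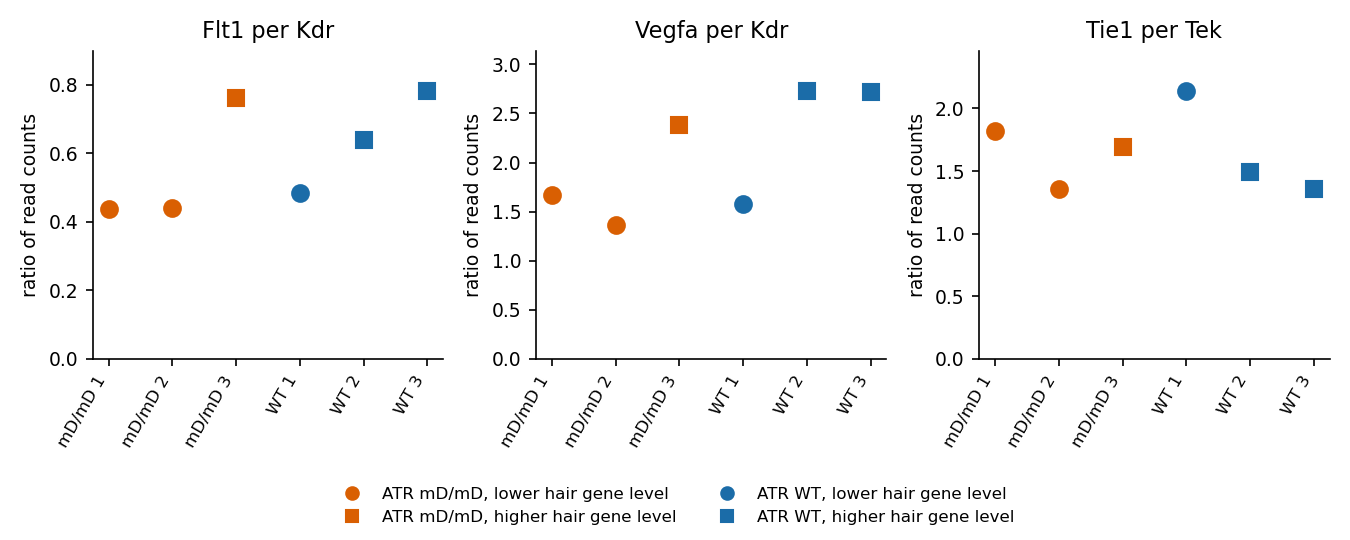
Ratio of read counts of Flt1 to Kdr, Vegfa to Kdr and Tie1 to Tek in each library, colours and symbols by genotype and hair level. The higher-hair libraries (squares) lie at 0.639 to 0.782 and the lower-hair libraries at 0.436 to 0.484 in the Flt1 panel, while the Tie1 panel shows no such division.

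Across the 6 libraries, the members fell into a tight set and looser ones, as Pearson's r of log2 CPM shows. The r was 0.97 for Cdh5 with Flt4 and for Kdr with Flt4, 0.95 for Cdh5 with Kdr, and 0.91 for Pecam1 with Cdh5 and with Tie1. Tie1 was less close to the rest of these, with an r of 0.75 with Cdh5, 0.69 with Kdr and 0.67 with Flt4. Vegfa had an r of 0.78 with Flt1, 0.20 with Kdr, -0.19 with Pecam1 and -0.45 with Tie1. Lyve1 had its highest r with Tek, 0.82. These values describe 6 libraries that fall into separate hair levels, and all genes of a library share its depth and tissue makeup, so no p is given. By the same measure, the genes outside the list most like Pecam1 were Ercc4 (r = 0.997), Tead1 (0.995), Espn (0.993) and Wnt3a (0.992). Among those most like Vegfa were Htra3 (0.986), Fbln1 (0.985) and Gbp2b (0.982), and those most like Lyve1 were Zfp748 (0.991), Scara5 (0.982), Antxr2 (0.980) and Gnaq (0.980).

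Genotype differences were also set out within each hair level. Among the higher-hair libraries, 8 of 9 members were lower in ATR mD/mD 3 than in the mean of ATR WT 2 and 3, while among the lower-hair libraries 4 of 9 were lower in ATR mD/mD 1 and 2 than in ATR WT 1. For Vegfa the log2 difference of ATR mD/mD minus ATR WT was -0.73 among the higher-hair libraries and 0.09 among the lower-hair libraries. In the same order of hair level, it was -0.53 and 0.16 for Kdr, -0.42 and 0.01 for Flt1, and -0.83 and 0.60 for Lyve1. Cdh5, Flt4 and Tek had -0.34, -0.38 and -0.18 among the higher-hair libraries and -0.07, -0.02 and 0.17 among the lower-hair libraries. Tie1 had 0.07 among the higher-hair and -0.28 among the lower-hair libraries, and Pecam1 had -0.12 at both levels. Vegfa, Flt1 and Lyve1 lay higher with hair level in ATR WT and lower in ATR mD/mD without overlap, which is 3 of 9 members, against 13.2% of all genes (25.1% with opposite directions either way). Flt1 is counted by a near tie in ATR WT, 16.42 CPM in library 2 against 16.24 CPM in library 1. Each of these values rests on 1 library of 1 genotype, so it has no replicate check, and hair level cannot be told apart from that library.

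Other genes of the vessel programme were read from lists named for their roles. Of 108 measured genes in 6 lists, 0 passed over all genes (edgeR), 4 had an unadjusted p under 0.05 (1.66% of all genes did), and DESeq2 and limma-voom called 0. Of 31 pan-endothelial genes, 0 rose and 0 fell by genotype, with a median log2 fold change of 0.08. Cldn5, a tight junction claudin, had 50.9 ± 5.16 CPM in ATR mD/mD and 36.0 ± 13.4 CPM in ATR WT (SD, n = 3 each; log2 fold change 0.50, SE 0.271). Erg, an ETS factor that maintains endothelial identity, had 13.7 ± 1.71 CPM in ATR mD/mD and 11.2 ± 0.558 CPM in ATR WT (0.29, SE 0.164), with each ATR mD/mD library above each ATR WT library. Sox7, a vascular SOX factor, had 20.1 ± 1.48 CPM in ATR mD/mD and 25.0 ± 6.10 CPM in ATR WT (-0.32, SE 0.198).

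Most of the pan-endothelial genes had a slope below 0 against hair level, but most also overlapped between hair levels. Of the 31, 8 (25.8%) were lower in the higher-hair libraries without overlap and 1 (3.23%) was higher, against 17.1% and 19.6% of all genes. Cldn5 was among the 8, at 24.25 to 44.97 CPM in the higher-hair libraries, against 50.6 to 54.53 CPM in the lower-hair libraries. Myct1, an endothelial membrane protein gene, was among the 8, at 7.24, 8.46 and 7.43 CPM in the higher-hair libraries ATR mD/mD 3, ATR WT 2 and ATR WT 3, against 9.24, 10.7 and 13.5 CPM in ATR mD/mD 1, ATR mD/mD 2 and ATR WT 1. The exception was the tetraspanin gene Tspan18, at 17.6 to 19.4 CPM in the higher-hair libraries against 9.98 to 15.2 CPM in the others. The slope against hair level was below 0 in 24 of the 31 (77.4%), against 47.9% of all genes.

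Of 20 measured ligands, co-receptors and related genes, 0 passed by genotype, and the median log2 fold change was -0.06. The lowest p values belonged to Angpt1, the TIE2 agonist, with 16.1 ± 6.25 CPM in ATR mD/mD and 11.5 ± 0.212 CPM in ATR WT (log2 fold change 0.48, SE 0.311), to the chemokine gene Cxcl12 with 314.7 ± 89.2 CPM in ATR mD/mD and 449.8 ± 170 CPM in ATR WT (-0.52, SE 0.333), and to Pgf, a ligand of VEGFR1, with 4.36 ± 1.14 CPM in ATR mD/mD and 3.08 ± 0.922 CPM in ATR WT (0.50, SE 0.330). By hair level, 6 (30%) were lower and 3 (15%) higher in the higher-hair libraries without overlap, against 17.1% and 19.6% of all genes. Angpt1 was among the 6, at 9.02 to 11.4 CPM in the higher-hair libraries, against 11.75 to 20.9 CPM in the lower-hair libraries. Figf, the gene of the VEGFR3 ligand VEGF-D, had 13.2, 15.6 and 13.7 CPM in the higher-hair libraries ATR mD/mD 3, ATR WT 2 and ATR WT 3, against 19.9, 24.0 and 28.3 CPM in ATR mD/mD 1, ATR mD/mD 2 and ATR WT 1. Cxcl12 lay the other way, at 417.1, 434.6 and 626.5 CPM in the same higher-hair libraries, against 253.8, 273.2 and 288.2 CPM in the lower-hair libraries.

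Of 13 measured lymphatic genes, 0 passed by genotype, with a median log2 fold change of -0.18. Leaving out library 1 of ATR mD/mD gave a median of -0.0770, leaving out its library 3 gave -0.0151, and leaving out library 3 of ATR WT gave -0.0077. Gja4, a connexin of arterial endothelium and lymphatic valves, had 17.2 ± 0.724 CPM in ATR mD/mD and 12.8 ± 1.97 CPM in ATR WT, without overlap (log2 fold change 0.43, SE 0.164, unadjusted p = 0.0371, adjusted p = 0.9999, edgeR). Fgl2 had 101.9 ± 7.63 CPM in ATR mD/mD and 124.0 ± 9.15 CPM in ATR WT, also without overlap (-0.28, SE 0.127). Against hair level, 1 of the 13 (7.69%) was lower and 3 (23.1%) were higher without overlap, against 17.1% and 19.6% of all genes. Among the 3 was Gja1, a connexin that skin keratinocytes also express, with 1150, 671.7 and 944.2 CPM in the higher-hair libraries ATR mD/mD 3, ATR WT 2 and ATR WT 3, against 186.2, 198.3 and 216.8 CPM in ATR mD/mD 1, ATR mD/mD 2 and ATR WT 1. Adamts3, a protease gene of VEGF-C maturation, had 2.61, 1.73 and 2.27 CPM in those higher-hair libraries, against 0.572, 0.305 and 0.579 CPM in the lower-hair libraries.

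Hypoxia response genes, which include regulators of Vegfa, gave 0 calls among 18 measured, with a median log2 fold change of -0.09. P4ha1, a collagen prolyl hydroxylase gene, had 56.5 ± 3.06 CPM in ATR mD/mD and 63.6 ± 1.38 CPM in ATR WT, without overlap (log2 fold change -0.17, SE 0.101). Egln3, an oxygen sensor gene, had 82.6 ± 35.1 CPM in ATR mD/mD and 114.1 ± 43.3 CPM in ATR WT (-0.46, SE 0.371), and Adm, the gene of the vessel peptide adrenomedullin, 12.1 ± 0.954 CPM in ATR mD/mD and 13.8 ± 1.63 CPM in ATR WT (-0.19, SE 0.164). By hair level, 7 (38.9%) were lower and 3 (16.7%) higher without overlap, against 17.1% and 19.6% of all genes. Adm was among the 3, at 12.97 to 15.41 CPM in the higher-hair libraries, against 11.1 to 12.35 CPM in the lower-hair libraries. The steepest slopes belonged to the glycolytic genes Aldoa (-0.22) and Pfkfb3 (-0.12). Skeletal muscle, whose 11 markers were lower in the same libraries, is rich in glycolytic enzymes, and its part in these slopes was not tested.

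Of 13 genes that restrain vessel growth, 0 passed by genotype over all genes, with a median log2 fold change of -0.23. Without overlap between genotypes, 3 of the 13 were lower in ATR mD/mD (Cxcl9, Cxcl10 and Adamts1) and 1 was higher. Over all genes, 2.58% were lower and 2.26% higher in this way. Cxcl9 had 6.06 ± 2.26 CPM in ATR mD/mD and 14.0 ± 0.875 CPM in ATR WT, and Cxcl10 3.72 ± 1.62 CPM in ATR mD/mD and 9.53 ± 0.305 CPM in ATR WT. These interferon-induced chemokines attract T cells and inhibit angiogenesis. Their log2 fold changes were -1.21 (SE 0.305, unadjusted p = 0.00623) and -1.36 (SE 0.371, unadjusted p = 0.00903), at an adjusted p of 0.9999 (edgeR), and the adjusted p was 0.0739 and 0.131 in DESeq2. Adamts1, a protease that can bind VEGF-A, had 55.6 ± 0.725 CPM in ATR mD/mD and 69.0 ± 9.37 CPM in ATR WT (-0.31, SE 0.129, unadjusted p = 0.0480, edgeR). Thbs1 and Col18a1, sources of the inhibitors thrombospondin 1 and endostatin, had the steepest slopes against hair level, 0.21 and 0.18. Both were higher in each higher-hair library than in any lower-hair library. In this way 2 of the 13 (15.4%) were higher and 0 were lower, against 19.6% and 17.1% of all genes.

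Mural cells, the pericytes and smooth muscle around vessels, were represented by 13 genes, of which 0 passed by genotype, with a median log2 fold change of 0.06. Cspg4, the gene of the pericyte proteoglycan NG2, had 65.5 ± 14.6 CPM in ATR mD/mD and 87.3 ± 16.5 CPM in ATR WT (log2 fold change -0.42, SE 0.215). Pdgfrb, the receptor through which endothelium recruits pericytes, had 73.5 ± 3.56 CPM in ATR mD/mD and 83.9 ± 13.5 CPM in ATR WT (-0.19, SE 0.147), and the actin gene Acta2 had 313.5 ± 38.3 CPM in ATR mD/mD and 260.3 ± 57.6 CPM in ATR WT (0.27, SE 0.208). By hair level, 4 (30.8%) were lower and 1 (7.69%) higher in the higher-hair libraries without overlap, against 17.1% and 19.6% of all genes. The 1 higher was Cspg4, at 82.18 to 97.97 CPM in the higher-hair libraries, against 55.13 to 68.33 CPM in the lower-hair libraries. Des, also a skeletal muscle gene, and Abcc9, a potassium channel subunit gene, had the steepest slopes, -0.26 and -0.15.

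**Figure D5:**
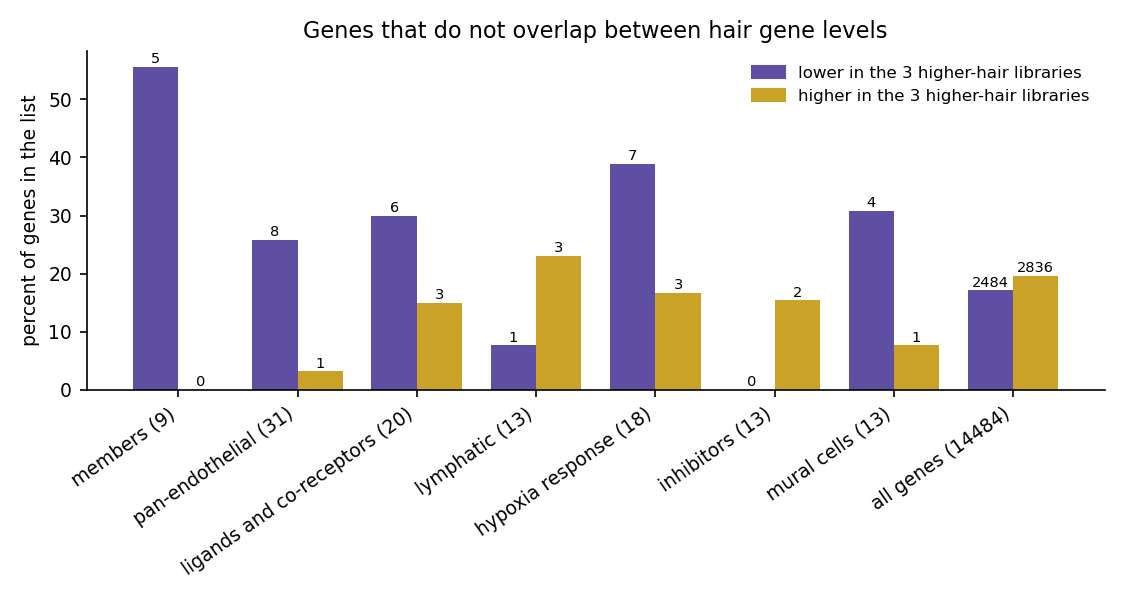
Share of each gene list (percent) that was lower (purple) or higher (gold) in the 3 higher-hair than in the 3 lower-hair libraries without overlap, with the number of genes above each bar and the list size in brackets. The members have 5 and 0 genes, against 17.1% and 19.6% of all genes.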

How the data were processed

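Per the submitters' processing notes, reads were processed with FastQC, TopHat2 2.0.12 and edgeR on mm10. The kit (TruSeq RNA v2, oligo dT) does not mark strand. Which counter, annotation and low-count filter were used is not given in the sources used here. Whole-number raw counts per gene and library were deposited by the authors. Per the file headers, the same table holds the authors' log2 fold change, average log2 CPM, p-value and adjusted p-value. The lowest gene total over the 6 libraries is 171. The 2 rows that name no gene (4.93% to 5.73% of listed counts) were left out. No 2 libraries of a group agreed within sampling noise (chi-square per degree of freedom of 55.4 or more).

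Counts were scaled by TMM and tested with edgeR 4.0.16 (R 4.3.3) by quasi-likelihood, with no covariate. The filter filterByExpr kept all 14484 genes, as did 1 CPM in at least 3 libraries. SE is the absolute log2 fold change over the square root of F, and intervals use the fit's degrees of freedom. Exon lengths and positions come from GENCODE M21 (mm10), where no other gene's exons overlap the members'. An exact permutation test of 3 against 3 cannot go below p = 0.1, so none was run. Hair level is the mean log2 CPM of 30 genes, and groups by it were described only.

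The members and gene lists were chosen with earlier results of these data known. All members are named, plus per list the 3 genes with the lowest p and the 2 with the steepest hair slope. Of the genes this rule names, 2 are not reported here. For likeness, genes had a mean of at least 1 log2 CPM, and symbols of the Gm or Rik kind were passed over. Alternatives were RLE size factors, filters, DESeq2 1.42.0, limma-voom (limma 3.58.1), a replicate block, hair and Xist covariates, and leaving out each library. The test was also run on simulated data with planted changes larger than those of the members. The simulation had less spread between libraries than these data (common dispersion 0.121) and no hair level difference. It therefore does not check the test for differences as small as the members' at this spread.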

Additional observations from a re-analysis of the deposited data

Results flagged for a closer look

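Vegfa, Flt1 and Lyve1 moved in opposite directions with hair level in the 2 genotypes, and this difference was not tested. In ATR mD/mD, the higher-hair library lay below both lower-hair libraries, with a log2 difference from their mean of -0.33 for Vegfa, -0.19 for Flt1 and -0.99 for Lyve1. In ATR WT, the mean of the higher-hair libraries lay above the lower-hair library by 0.48 for Vegfa, 0.25 for Flt1 and 0.44 for Lyve1. For Flt1, ATR WT 2 (16.42 CPM) and ATR WT 1 (16.24 CPM) were nearly tied. The same pattern was found in 13.2% of all genes, and an opposite movement either way in 25.1%, beside 3 of 9 members. The lone higher-hair library is ATR mD/mD 3 and the lone lower-hair ATR WT library is ATR WT 1. In ATR WT, the higher-hair libraries are also those with high Xist.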

How the results depend on the processing

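0 members and 0 genes of the 6 lists passed under any alternative run. The number of genes called among 14484 was 7, and it was 39 with DESeq2, 4 with Xist as a covariate, and 4 to 10 with 1 library left out (4 without ATR mD/mD 1, ATR WT 2 or ATR WT 3, 10 without ATR WT 1). Whether replicate numbers pair the samples could not be decided. The deviations of same-numbered libraries from their group means had r of 0.633, -0.509 and 0.573, and 3 of 6 libraries correlated best with their own number. These deviations also carry hair level. It lay on the same side of the group mean in the libraries numbered 1 and in those numbered 3. In those numbered 2 it lay on opposite sides. With the replicate block, 6 genes were called. Members whose genotypes did not overlap were 0, and 0 to 2 with 1 library left out (1 without ATR mD/mD 2 or ATR mD/mD 3, and 2 without ATR WT 1). The count of 5 members lower in higher-hair libraries was 5 with RLE size factors and with hair keratins only, and 5 to 6 with 1 library left out.

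Of 126 member log2 fold changes under alternatives, 104 kept their sign. With hair level as a covariate, Pecam1 turned to -0.11, Kdr to -0.19, Tie1 to -0.11 and Lyve1 to -0.0414. With Xist as a covariate, Pecam1 turned to -0.0430 and Tie1 to -0.0300. Lyve1 turned to -0.0237 with limma-voom and -0.0145 with the replicate block. With 1 library left out, the ranges were -0.13 to 0.17 for Pecam1, -0.22 to 0.12 for Cdh5, -0.13 to 0.35 for Kdr, -0.19 to 0.10 for Flt4, -0.13 to 0.26 for Tek, -0.0921 to 0.33 for Tie1 and -0.35 to 0.33 for Lyve1. Vegfa (-0.49 to -0.24) and Flt1 (-0.32 to -0.06) stayed below 0. The cause of these turns was not tested. With 1 library left out, the members' median ran from -0.1851 without ATR mD/mD 2 to 0.1376 without ATR mD/mD 3. It was -0.1935 with hair level as a covariate, the lowest of all alternatives, and -0.0430 with Xist as a covariate. With limma-voom it was -0.0237 and with the replicate block -0.0145. List medians changed sign for ligands (0.0628 without ATR mD/mD 3, 0.0611 without ATR WT 1), hypoxia genes (0.0236 without ATR WT 1), inhibitors (0.0142 without ATR WT 3) and mural genes (-0.0258 without ATR WT 3, -0.0158 with hair level as a covariate). The mural median was 0.34 without ATR WT 1.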

Other observations

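The 10 markers of fibroblasts, the cells of the connective tissue in which skin vessels lie, summed to 7795, 17040 and 16720 CPM in ATR mD/mD 1, 2 and 3 and to 18300, 16540 and 14470 CPM in ATR WT 1, 2 and 3. ATR mD/mD 1 thus lay below the other 5 libraries in this sum, while its Pecam1, Cdh5 and Tek lay within the range of the others.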
